A study of Rattus norvegicus with 8 samples.

Results

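Heat shock proteins and chaperonins are the protein-folding machinery of the cell, and their transcripts were examined in rat retinal ganglion cells (RGCs), the output neurons of the retina, after chronic ocular hypertension (COH). The members were the genes whose symbol in the array's annotation begins with Hsp (Hspg2 excepted) or Dnaj, or with Hsf and a digit, together with the chaperonin genes Cct2 to Cct8 and Bag3. This gave 82 of the 14871 genes named on the array, of which 65 had at least 1 spot with a value on all 8 arrays and could be compared. The COH group was 4 samples of RGCs purified from rat eyes under chronically raised pressure, an experimental model of glaucoma, and the control group was 4 samples of RGCs from the normotensive fellow eyes. Both eyes of an animal were used and animals were pooled, so each COH sample has a control sample of the same number. The sources used here do not give the strain, the age, how and for how long pressure was raised, or the number of animals per pool. The p-values rest on the spread between 4 pairs of pools, moderated for each gene by the spread over all genes and probes tested. Each sample was labelled with Cy5 and hybridised to an Agilent rat array against Cy3-labelled rat reference RNA. A value is therefore RGC over reference RNA as a log2 ratio, and a difference of 1 between COH and control is a 2-fold difference.

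Chaperones bind unfolded proteins and help them fold, refold or be handed on for degradation. Hsp70 proteins work in cycles of ATP binding and hydrolysis that are driven by J-domain (DnaJ) co-chaperones and reset by nucleotide exchange factors such as the Hsp110 proteins and Bag3. Hsp90 matures kinases and receptors, small heat shock proteins hold misfolded proteins in solution, Hsp60 with Hsp10 folds proteins inside mitochondria, and the ring-shaped CCT complex folds actin and tubulin. Many of these genes are switched on together by heat shock factor 1, Hsf1, which binds repeated nGAAn units (heat shock elements) in their promoters. In neurons the same families also serve vesicle recycling and axonal transport, and small heat shock proteins are known to be induced in injured RGCs and retinal glia.

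Heat shock elements were looked up in the promoters that could be matched, because they are the known binding sequence of Hsf1. The RefSeq promoter table for rat (GRCr8, 250 bases before to 50 bases after each gene's start) held 66 of the 82 members. A pair of facing units, GAANNTTC or TTCNNGAA on either strand, lay in 20 of these 66 windows (30.3%), against 4233 of all 27457 windows (15.4%). A run of 3 alternating units lay in 6 member windows (9.09%), those of Cct4, Dnaja1, Hspa8, Hspd1, Hspe1 and Hsph1, against 202 of all windows (0.736%). Most member windows thus held no facing pair, that of the inducible Hsp70 gene Hspa1a among them. A match describes the letters and is not a measured binding site, and a window without one says nothing about sequence outside it. The promoters of Dnajb1, Hspd1 and Hspe1 are printed 5′ to 3′ because the first belongs to the member whose groups did not overlap and the other pair is a head-to-head gene pair that shares 1 run of units. The capitals mark the facing units. They lie at chr19:41431092-41431391 (minus strand), chr9:64083988-64084287 (minus strand) and chr9:64084077-64084376 (plus strand).
Dnajb1: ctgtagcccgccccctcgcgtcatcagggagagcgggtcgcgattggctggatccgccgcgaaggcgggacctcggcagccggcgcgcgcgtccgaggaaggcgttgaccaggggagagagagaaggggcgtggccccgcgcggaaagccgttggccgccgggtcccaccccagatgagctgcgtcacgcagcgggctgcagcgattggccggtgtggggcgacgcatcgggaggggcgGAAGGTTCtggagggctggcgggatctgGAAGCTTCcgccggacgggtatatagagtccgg
Hspd1: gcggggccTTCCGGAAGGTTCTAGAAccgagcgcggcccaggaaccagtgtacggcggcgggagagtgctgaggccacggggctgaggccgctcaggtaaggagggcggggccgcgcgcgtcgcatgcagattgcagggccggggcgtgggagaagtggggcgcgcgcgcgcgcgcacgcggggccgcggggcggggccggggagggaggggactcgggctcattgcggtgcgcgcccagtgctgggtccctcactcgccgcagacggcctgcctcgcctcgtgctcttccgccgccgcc
Hspe1: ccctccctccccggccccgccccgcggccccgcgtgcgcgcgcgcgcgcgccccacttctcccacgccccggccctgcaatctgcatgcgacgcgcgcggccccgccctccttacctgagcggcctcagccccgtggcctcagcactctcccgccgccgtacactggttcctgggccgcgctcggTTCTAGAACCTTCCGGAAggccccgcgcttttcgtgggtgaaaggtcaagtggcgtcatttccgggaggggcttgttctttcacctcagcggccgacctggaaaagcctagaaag

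In the Dnajb1 window the first pair of units began 11 bases before the gene's start and the second began 17 bases after it. The Hspd1 and Hspe1 windows overlap by 211 bases, and both contain the same 18 bases with 4 alternating units, read from opposite strands. The run begins 242 bases before the start of Hspd1 and 65 bases before that of Hspe1. Over the 5 measured members with a run of 3 units the median COH minus control difference was 0.01 (range -0.14 to 0.63), and over the 48 measured members whose window lacked one it was 0.04.

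Before the results, the arrays themselves differed. Between 32101 and 42076 of 45220 spots carried a value, and 50.9% to 59.5% of an array's values were shared exactly by 3 or more spots, which was used as a sign of low signal. Over spots with distinct values, COH 4 correlated with the remaining arrays at a mean of 0.68, where those had 0.77 to 0.84, and its values drifted by 1.17 log2 units over spot position, where the others drifted by 0.17 to 0.89. Differences of the genes given array by array are therefore also given without pair 4 where that turned their sign or moved them by more than 0.2. Of 18 RGC marker genes 13 were measured, with a median log2 ratio of 0.29 in COH and 0.33 in control samples. Nefh, Pou4f1, Pou4f2, Pou4f3 and Ebf3 were not measured on all 8 arrays. Photoreceptor markers stood higher, at 1.55 in COH and 1.30 in control samples over 5 of 15 genes, so the ratios alone do not establish the purity of the cells. Markers of RGCs, photoreceptors, bipolar cells, Muller glia, astrocytes, microglia and endothelium came to 40 measured genes, of which 22 had a COH minus control difference above 0 and 18 one below. By the selection rule in the study's description (unadjusted p under 0.05 and at least 1.5-fold) 3 of the 40 were lower in COH (7.5%, against 2.17% of all items) and 0 were higher (against 2.57%). The 3 were Thy1 of RGCs (-1.28, lower in 3 of 4 pairs), Aldh1l1 of astrocytes (-0.92, in 4 of 4) and Cx3cr1 of microglia (-2.05, in 4 of 4 and without overlap). Some other markers of the same lists pointed the other way. Of the 13 RGC markers 8 lay above 0, with a median of 0.08. Of 4 astrocyte markers Gfap (0.15) and Aldoc (0.25) lay above 0, and S100b (-0.28) lay below 0 with Aldh1l1. Of 7 microglial markers 3 lay above 0, namely Tyrobp (0.37, higher in 4 of 4 pairs), Ptprc (0.48, in 2 of 4) and Aif1 (0.39, in 3 of 4). Cx3cr1, Cd68 (-0.59), Csf1r (-0.06) and Cd14 (-0.05) lay below 0. The markers' part in the differences below was not tested, and in such bulk RNA fewer cells of a type and less RNA per cell cannot be told apart.

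Among the chaperone genes the testis-type small heat shock protein Hspb9 and the Hsp40 gene Dnajb1 had the clearest differences, 1.37 and 0.82 on the log2 scale in favour of COH. The classical stress genes Hspa1a (Hsp70) and Hspb1 (Hsp27), each measured by 10 spots, differed by -0.15 and 0.08. In limma, with pair as a blocking factor, 0 of 65 members had a Benjamini-Hochberg adjusted p under 0.05, and so did 0 of the 18595 items tested (0.0%, smallest adjusted p 0.915). At an unadjusted p under 0.05 in limma there were 2 of the 65 members and 880 of the 18595 items, where about 930 items would be expected with no differences. The median COH minus control difference was 0.07 over the 65 members and 0.08 over all 18595 items. Above 0 lay 40 members and below 0 lay 25, against 10458 and 8137 of all items. Within the 4 pairs the members' median was -0.19, 0.01, 0.34 and 0.15, and that of all items was -0.10, 0.002, 0.34 and 0.07. The members' medians were close to those of all items in each pair, and that of pair 1 lay below 0. Many of the single differences were small enough to turn with 1 pair: the sign changed in 12, 10, 12 and 17 of the 65 members without pairs 1, 2, 3 and 4 in turn, which left 44, 40, 32 and 35 members above 0.

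**Figure D1:**
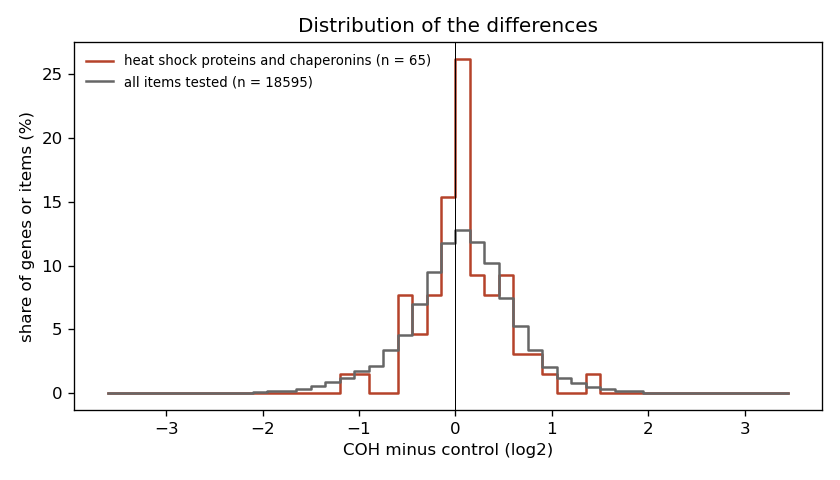
The histogram shows the COH minus control difference (x axis, log2) of the 65 measured heat shock and chaperonin genes and of all 18595 items tested, each as a share in percent (y axis). Both distributions centre near 0, at medians of 0.07 and 0.08.

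By the study's selection rule 2 members were higher in COH, Hspb9 and Dnajb1, which is 3.08% of the 65 against 2.57% of all items, and 0 members were lower, against 2.17% of all items. Over all items this was 477 higher and 403 lower, and 346 higher and 493 lower once a trend over spot position had been removed. In 1 member, Dnajb1, every COH array lay above every control array (1.54% of members, against 1.58% of all items), and in 0 members every COH array lay below (against 0.946%). For 7 members COH was higher in 4 of 4 pairs (10.8%, against 8.38% of all items), namely Hspb9, Dnajb1, Dnajc24, Hspd1, Hspb6, Dnaja4 and Dnajc9. It was lower in 4 of 4 pairs for 1 member, Hspa5 (1.54%, against 4.66%). The shares of members called under the rule and for non-overlap lay near those of all items in the higher direction.

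The precision sets what could have been seen. The median standard error of a difference was 0.37 over the members and 0.42 over all items. Limma moderates each gene's variance by that of all items (3.86 prior degrees of freedom). The errors and intervals are therefore not set by a gene's own pairs alone. Dnajc12 had an SD over pairs of 0.12 and a standard error of 0.31, and Dnaja3 had 2.55 and 0.90. The 95% intervals of 19 members lay within 1 log2 unit of 0 on both sides, which places a 2-fold difference outside them. Those of the other 46 reached beyond 1 in at least one direction, so that a 2-fold difference lay within them.

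**Figure D2:**
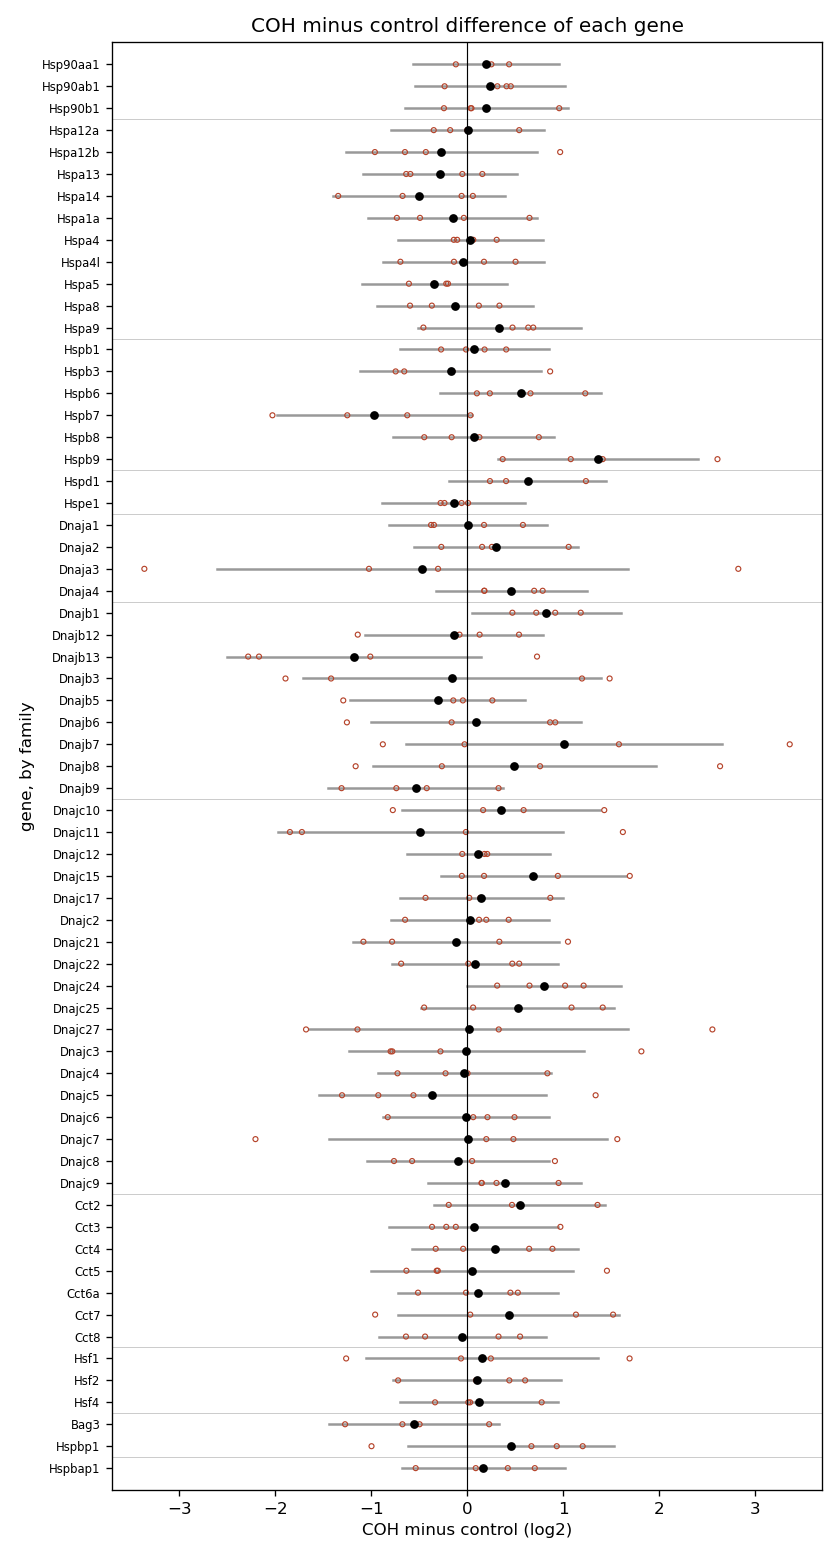
Each row is a gene, grouped by family, and the x axis is the COH minus control difference (log2): filled points are the limma estimate, grey bars its 95% interval and open circles the 4 pairs. Only the intervals of Hspb9 and Dnajb1 leave out 0.

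Most chaperone transcripts were lower in RGC RNA than in the reference RNA, in either group. Of the 65 members, 39 lay below the reference on all 4 COH arrays and 9 above it, and 42 lay below on all 4 control arrays and 14 above. On all 8 arrays 34 were below and 8 above, compared with 3625 below and 1500 above among the 9792 named genes. The median of the members' mean log2 ratios was -0.62 in COH and -0.66 in control samples, and that of all named genes was -0.35 in COH and -0.41 in control samples. The 8 members above the reference on every array were Hspa12a, Hspa4l, Hspb3, Hspb9, Dnajb3, Dnajb8, Dnajc2 and Dnajc12. A gene's mean in COH tracked its mean in control samples across the 65 members (Pearson r = 0.93, a description only, since both share the probe and the reference RNA). Without a dye swap these levels are given as a description only.

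**Figure D3:**
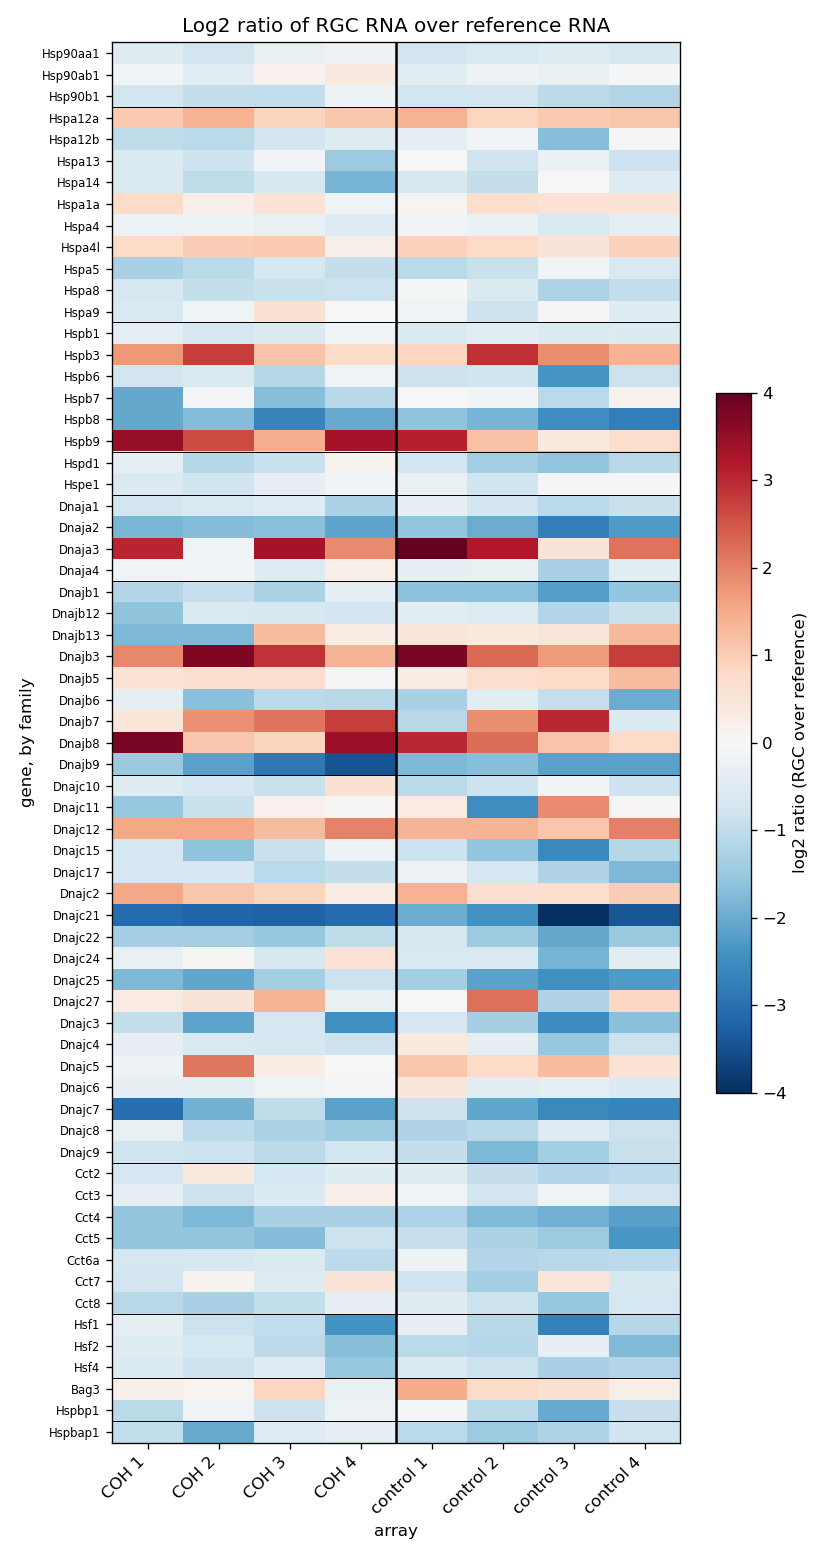
The heat map gives the RGC over reference log2 ratio (colour scale from -4 to 4) of each of the 65 genes (rows, by family) on the 4 COH and 4 control arrays (columns). Of these genes, 34 lie below 0 and 8 above 0 on all 8 arrays, and Dnajb1 is the only row in which every COH column lies above every control column.

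The Hsp90 family had 3 members, all measured, with differences between 0.20 and 0.24. Hsp90aa1, the stress-inducible cytosolic form, had log2 ratios of -0.48, -0.74, -0.28 and -0.22 in COH 1 to 4, against -0.73, -0.62, -0.50 and -0.65 in control 1 to 4. The difference was 0.20 (95% interval -0.56 to 0.96), with all 4 of its spots on the higher side. Hsp90ab1, the constitutive cytosolic form, had -0.12, -0.45, 0.17 and 0.37 in COH 1 to 4, against -0.43, -0.22, -0.29 and -0.04 in control 1 to 4, a difference of 0.24 (95% interval -0.54 to 1.02). Its 5 spots lay up to 4.0 log2 units apart in mean level, and the 2 with distinct values gave -0.05. Hsp90b1, the endoplasmic reticulum paralogue (Grp94), had -0.72, -0.97, -0.99 and -0.21 in COH 1 to 4, against -0.76, -0.72, -1.04 and -1.18 in control 1 to 4, a difference of 0.20 (95% interval -0.65 to 1.05) that was -0.05 without pair 4. In each of the 3 genes COH was higher in 3 of 4 pairs, the COH and control ranges overlapped, and each interval included 0.

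Of the 14 Hsp70 and Hsp110 genes 10 were measured, with a median difference of -0.14 (range -0.50 to 0.34) and 7 of 10 below 0, or 5 of 10 without pair 4. Hspa1a, the classical stress-inducible Hsp70, was printed in 10 measured spots. It had 0.75, 0.20, 0.54 and -0.18 in COH 1 to 4, against 0.10, 0.69, 0.58 and 0.55 in control 1 to 4, and COH 4 was the only array with a mean below the reference. The difference was -0.15 (95% interval -1.03 to 0.73), and 0.04 without pair 4. The 10 spots had an SD within an array of 0.96 on COH 4, 0.92 on COH 2, 0.89 on control 1 and 0.23 to 0.48 on the other 5 arrays, so the gene was measured unevenly even with this repetition. Hspa1b, its near-identical copy, had a value on 2 arrays, both control, and the array's probes may not separate the copies.

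**Figure D4:**
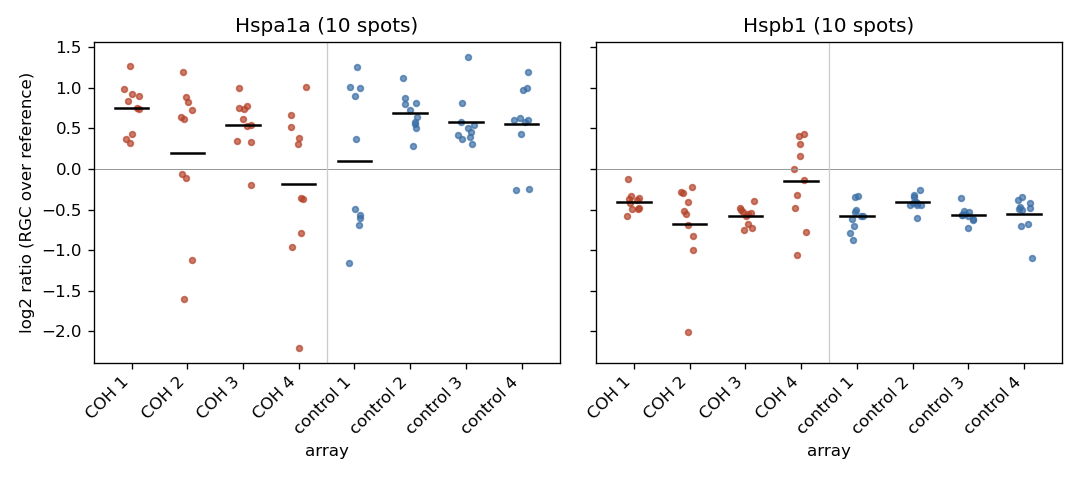
Each dot is 1 of the 10 spots of Hspa1a (left) or Hspb1 (right), and the black lines are the means on each array (x axis, COH arrays then control arrays, y axis log2 ratio of RGC over reference RNA). Hspb1 spots lie close together on most arrays and spread on COH 2 and COH 4, and Hspa1a spots spread most on COH 2, COH 4 and control 1.

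Hspa8, the constitutive cytosolic Hsc70 that also strips clathrin coats from vesicles, had -0.68, -0.94, -0.89 and -0.85 in COH 1 to 4, against -0.08, -0.57, -1.23 and -0.97 in control 1 to 4. Its difference was -0.13 (95% interval -0.94 to 0.69), and its COH arrays lay inside the range of its control arrays. The 3 Hspa8 spots with distinct values gave -0.02, -0.12 and 0.39, and its spots with shared values gave -0.45 and -0.43. Hspa5, the endoplasmic reticulum chaperone BiP and a standard readout of the unfolded protein response, had -1.29, -1.08, -0.70 and -0.94 in COH 1 to 4, against -1.07, -0.88, -0.09 and -0.59 in control 1 to 4. It was the single member lower in 4 of 4 pairs, although the groups overlapped and the difference of -0.34 (95% interval -1.10 to 0.41) did not meet the rule. Hspa9, mortalin of the mitochondrial matrix, had -0.61, -0.18, 0.60 and -0.01 in COH 1 to 4, against -0.16, -0.82, -0.09 and -0.48 in control 1 to 4, a difference of 0.34 (95% interval -0.51 to 1.19). Its 3 spots disagreed, with single differences from -0.01 to 0.97. The lowest came from its only spot with distinct values, and the highest from a spot with shared values on 4 arrays. The median over spots gave 1.03, where the gene met the rule. Hspa4, an Hsp110-type nucleotide exchange factor, had -0.25, -0.19, -0.29 and -0.53 in COH 1 to 4, against -0.15, -0.25, -0.60 and -0.39 in control 1 to 4, a difference of 0.03 (95% interval -0.72 to 0.79). Hspa12a, an atypical family member abundant in brain, had the highest control mean of the family, with 1.06, 1.40, 0.88 and 1.11 in COH 1 to 4, against 1.40, 0.85, 1.06 and 1.11 in control 1 to 4. Its difference was 0.01 (95% interval -0.79 to 0.80), and all 8 arrays lay above the reference within a range of under 1 log2 unit.

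Small heat shock proteins had the widest range of differences of any family, from -0.97 for Hspb7 to 1.37 for Hspb9, around a median of 0.07 over 6 of 7 genes that was -0.02 without pair 4. Hspb9, a small heat shock protein known mainly from testis, had 3.49, 2.60, 1.47 and 3.31 in COH 1 to 4, against 3.12, 1.19, 0.39 and 0.70 in control 1 to 4. COH was higher by 0.37, 1.41, 1.08 and 2.61 in pairs 1 to 4, and the groups overlapped because control 1 lay above COH 2 and COH 3. The difference of 1.37 (95% interval 0.33 to 2.41) corresponds to 2.58-fold, with a standard error of 0.44, an unadjusted p of 0.0173 and a limma adjusted p of 0.915. It rests on 1 spot, with distinct values throughout. Without pair 4 the difference was 0.96 and no longer met the rule (unadjusted limma p 0.0579). It also missed the rule with the position trend removed, at 1.02 (unadjusted limma p 0.0523), and with no replicate block (unadjusted limma p 0.062).

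Hspb1 (Hsp27), the small heat shock protein best known from injured neurons and glia, had -0.40, -0.68, -0.58 and -0.15 in COH 1 to 4, against -0.59, -0.41, -0.57 and -0.56 in control 1 to 4. With 10 spots the difference was 0.08 (95% interval -0.70 to 0.85), higher in 2 of 4 pairs and at -0.03 without pair 4, and COH 4 was the highest and COH 2 the lowest of the 8 arrays. The spots of Hspb1 had a within-array SD of 0.53 on COH 2 and 0.51 on COH 4, against 0.09 to 0.22 on the remaining arrays. Hspb8, a partner of Bag3 in selective autophagy, had the lowest control mean of the family, with -2.06, -1.74, -2.66 and -2.01 in COH 1 to 4, against -1.62, -1.86, -2.50 and -2.76 in control 1 to 4 and a difference of 0.07 (95% interval -0.77 to 0.91) that was -0.16 without pair 4. Hspb3, known from muscle, had the highest control mean, with 1.73, 2.77, 1.13 and 0.74 in COH 1 to 4, against 0.86, 2.92, 1.87 and 1.40 in control 1 to 4 and a difference of -0.17 (95% interval -1.11 to 0.77). Hspb6 (Hsp20) was higher in 4 of 4 pairs by 0.56 (95% interval -0.28 to 1.40). Hspb7, known from heart and singled out after its values were seen, had -2.04, -0.07, -1.70 and -1.11 in COH 1 to 4, against -0.01, -0.11, -1.07 and 0.14 in control 1 to 4. The difference of -0.97 (95% interval -1.98 to 0.05) missed the rule at an unadjusted p of 0.0587. It met the rule under scaled spread, quantile normalization, removal of the position trend, a robust prior and without pair 2, and neither of its spots had distinct values on all arrays.

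The mitochondrial chaperonin pair, which shares the divergent promoter printed above, had differences of 0.63 for Hspd1 and -0.14 for Hspe1. Hspd1 (Hsp60) had -0.37, -1.14, -0.90 and 0.13 in COH 1 to 4, against -0.78, -1.38, -1.55 and -1.11 in control 1 to 4. COH was higher in 4 of 4 pairs and in the mean of each of its 4 spots (0.30 to 0.97), but COH 2 and COH 3 lay inside the control range and the difference of 0.63 (95% interval -0.18 to 1.45) did not meet the rule. Without pair 4 it was 0.43. Hspe1 (Hsp10), its lid, had -0.58, -0.79, -0.32 and -0.12 in COH 1 to 4, against -0.30, -0.80, -0.09 and -0.06 in control 1 to 4, a difference of -0.14 (95% interval -0.89 to 0.61) from 1 spot. The difference between the 2 genes' responses was not tested, and their intervals overlap.

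**Figure D5:**
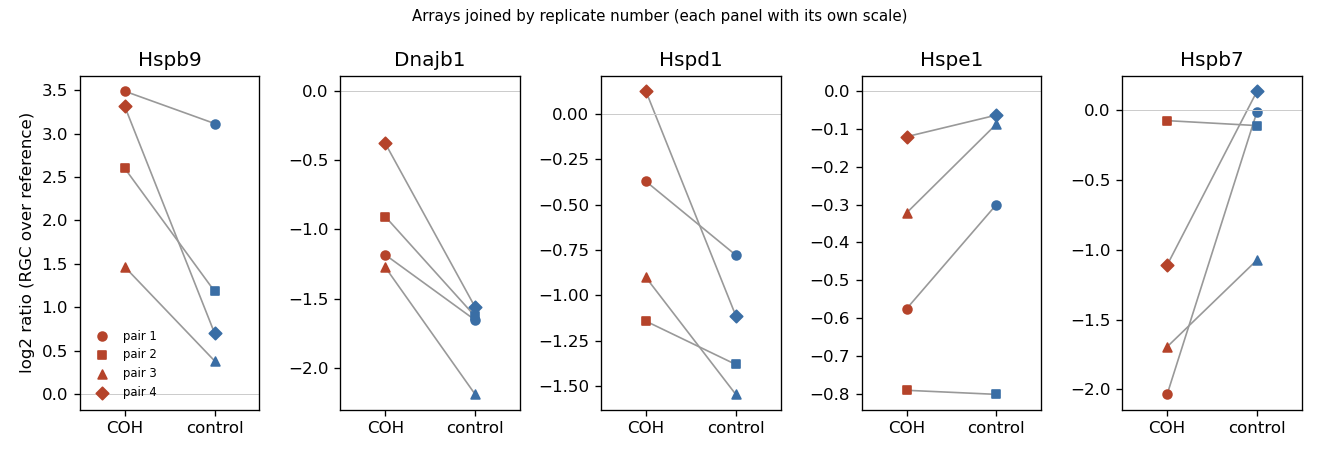
The log2 ratio of RGC over reference RNA (y axis, its own scale in each panel) is shown for 5 genes in the COH and control arrays, with lines joining arrays of the same number. The lines of Hspb9, Dnajb1 and Hspd1 all fall towards control, those of Hspe1 rise in 3 of 4 pairs and those of Hspb7 in 3 of 4.

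The DnaJ co-chaperones were the largest group, with 31 of 42 genes measured and a median difference of 0.02 (18 above 0, 13 below). The 4 class A genes had a median of 0.16, the 9 measured class B genes one of -0.14 and the 18 measured class C genes one of 0.02. Dnajb1 (Hsp40), the heat-inducible partner of Hspa1a, had -1.18, -0.91, -1.27 and -0.38 in COH 1 to 4, against -1.66, -1.63, -2.19 and -1.56 in control 1 to 4. The lowest COH array, COH 3, lay above the highest control array, control 4, and control 3 stood below the other control arrays. The difference of 0.82 (95% interval 0.05 to 1.60) corresponds to 1.77-fold, with a standard error of 0.33, an unadjusted p of 0.0405 and a limma adjusted p of 0.915. Its 2 complete spots differed in size. The spot with distinct values gave -1.30, -0.89, -1.06 and -0.24 in COH 1 to 4 and -1.05, -1.55, -1.67 and -1.01 in control 1 to 4, a difference of 0.45. The other gave -1.06, -0.92, -1.48 and -0.52 in COH 1 to 4 and -2.26, -1.71, -2.71 and -2.12 in control 1 to 4, a difference of 1.20. Only the second spot separated the groups without overlap. A further spot, measured in 3 of 4 pairs, pointed mostly the other way, with differences of -1.73, 0.37 and -0.26 in pairs 2 to 4. With that spot included the gene's difference was 0.45. Without any 1 pair the gene no longer met the rule, at differences between 0.70 and 0.94, nor did it under quantile normalization (0.71).

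The other DnaJ genes of classes A and B overlapped between the groups. Dnaja1, a cytosolic partner of Hsp70, had -0.74, -0.60, -0.50 and -1.27 in COH 1 to 4, against -0.40, -0.78, -1.09 and -0.89 in control 1 to 4, a difference of 0.01 (95% interval -0.81 to 0.83). Dnaja2, a close relative, had the lowest control mean of class A, with -1.83, -1.73, -1.67 and -2.10 in COH 1 to 4, against -1.56, -1.98, -2.72 and -2.26 in control 1 to 4 and a difference of 0.30 (95% interval -0.56 to 1.16). Dnaja3 (Tid1), the mitochondrial form, had 3.04, -0.16, 3.34 and 1.88 in COH 1 to 4, against 4.07, 3.21, 0.51 and 2.18 in control 1 to 4. Its arrays spread over more than 3 log2 units in either group, and the difference of -0.47 (95% interval -2.60 to 1.67) was -1.56 without pair 3 and 0.50 without pair 2. Dnajb3, known from testis, had the highest control mean of class B, with 1.91, 3.74, 2.89 and 1.35 in COH 1 to 4, against 3.81, 2.26, 1.70 and 2.76 in control 1 to 4, a difference of -0.16 (95% interval -1.71 to 1.40) that was 0.26 without pair 4. Dnajb9 (ERdj4), an endoplasmic reticulum co-chaperone of BiP, had the lowest, with -1.48, -2.13, -2.87 and -3.46 in COH 1 to 4, against -1.81, -1.71, -2.13 and -2.15 in control 1 to 4 and a difference of -0.53 (95% interval -1.45 to 0.38), or -0.28 without pair 4. In COH 3 and COH 4 it lay below every control array, and in COH 1 above them all. The remaining class B genes ran from -1.18 for Dnajb13 to 1.01 for Dnajb7, each from a single complete spot, with shared values on 8 and 6 arrays. Dnajb7 was at 0.23 without pair 4.

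Class C holds J-domain proteins with specialised tasks. Dnajc5 (cysteine string protein), which keeps synaptic vesicle proteins folded at nerve terminals, had -0.21, 2.12, 0.30 and -0.01 in COH 1 to 4, against 1.09, 0.78, 1.22 and 0.55 in control 1 to 4. COH was lower in 3 of 4 pairs and COH 2 was the highest of the 8 arrays, with a difference of -0.36 (95% interval -1.54 to 0.82). Dnajc6 (auxilin), the neuronal factor that brings Hspa8 to clathrin coats, had -0.33, -0.39, -0.17 and -0.06 in COH 1 to 4, against 0.50, -0.45, -0.39 and -0.56 in control 1 to 4, a difference of -0.01 (95% interval -0.88 to 0.85). Control 1 stood apart from the other control arrays. Dnajc12, which associates with aromatic amino acid hydroxylases, had the highest control mean of the class at 1.54, 1.56, 1.25 and 1.97 in COH 1 to 4, against 1.36, 1.35, 1.12 and 2.02 in control 1 to 4. Its difference was 0.12 (95% interval -0.63 to 0.86) and became -0.22 with the position trend removed. Dnajc21, a ribosome assembly factor, had the lowest, with -3.07, -3.22, -3.22 and -3.08 in COH 1 to 4, against -1.99, -2.44, -4.28 and -3.42 in control 1 to 4. The 4 COH arrays lay within 0.2 of each other while the control arrays spanned more than 2 log2 units, and the difference was -0.12 (95% interval -1.19 to 0.96). Dnajc24, a diphthamide synthesis factor, was higher in 4 of 4 pairs by 0.80 (95% interval -0.003 to 1.60), and Dnajc9, a histone co-chaperone, by 0.39 (-0.41 to 1.19). The 2 spots of Dnajc9, both with distinct values, lay 2.60 log2 units apart in mean level and disagreed. They gave -0.17, lower in 4 of 4 pairs, and 0.96, higher in 4 of 4, so the gene's average describes neither. Dnajc24 met the rule with arrays centred on their medians, with distinct values only and with a trend and robust prior, and was at 0.45 with the position trend removed.

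The CCT ring is built of the products of Tcp1 (Cct1) and the Cct genes. The symbol rule took in 8 Cct genes, including Cct6b, the paralogue of Cct6a, but not Tcp1, which differed by -0.11 (95% interval -0.87 to 0.64) and was lower in 3 of 4 pairs. Of the 8 Cct genes 7 were measured. A difference above 0 was seen in 6 of these 7, and in 10458 of all 18595 items. The 7 genes had a median of 0.11 and a range from -0.05 to 0.55. With the position trend removed the median was -0.003 and 3 of 7 lay above 0, and without pair 4 the count was 4 of 7. None was higher in 4 of 4 pairs. Cct2 had -0.68, 0.39, -0.71 and -0.49 in COH 1 to 4, against -0.49, -0.97, -1.18 and -1.05 in control 1 to 4, a difference of 0.55 (95% interval -0.34 to 1.44). Its spot with distinct values gave 0.22 and its other spot 0.87. Cct7 had -0.77, 0.15, -0.48 and 0.51 in COH 1 to 4, against -0.80, -1.37, 0.48 and -0.63 in control 1 to 4, a difference of 0.43 (95% interval -0.72 to 1.58), and 0.72 on its spot with distinct values, where it met the rule. It was 0.20 without pair 4. Cct4 had the lowest control mean, with -1.57, -1.81, -1.29 and -1.29 in COH 1 to 4, against -1.25, -1.77, -1.93 and -2.18 in control 1 to 4 and a difference of 0.29 (95% interval -0.57 to 1.16), or 0.09 without pair 4. These 3 had the highest differences of the 7, and each overlapped between the groups. Cct6a had -0.71, -0.71, -0.58 and -1.05 in COH 1 to 4, against -0.20, -1.16, -1.11 and -1.04 in control 1 to 4, a difference of 0.11 (95% interval -0.72 to 0.95), and control 1 stood above the other control arrays. Cct3 had the highest control mean, with -0.36, -0.87, -0.55 and 0.22 in COH 1 to 4, against -0.14, -0.76, -0.18 and -0.76 in control 1 to 4 and a difference of 0.07 (95% interval -0.81 to 0.95). Cct5 had -1.54, -1.57, -1.75 and -0.86 in COH 1 to 4, against -0.91, -1.26, -1.44 and -2.32 in control 1 to 4, a difference of 0.05 (95% interval -0.999 to 1.10), and Cct8 had -1.11, -1.29, -0.98 and -0.38 in COH 1 to 4, against -0.48, -0.85, -1.53 and -0.70 in control 1 to 4, a difference of -0.05 (95% interval -0.92 to 0.82). In the averages of Cct3 and Cct5 pair 4 alone was higher in COH, and their differences without it were -0.23 and -0.42. The 2 complete spots of Cct5 disagreed. The one with distinct values gave 0.50 and was higher in 3 of 4 pairs, and the other gave -0.39.

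The 3 heat shock factors all lay below the reference on every array and differed by 0.11 to 0.15. Hsf1, the master regulator of the heat shock response, had -0.39, -0.87, -0.99 and -2.40 in COH 1 to 4, against -0.33, -1.12, -2.69 and -1.14 in control 1 to 4, a difference of 0.15 (95% interval -1.05 to 1.36). COH 4 and control 3 were its low arrays, and its difference was 0.63 without pair 4 and -0.36 without pair 3. Hsf2 had -0.49, -0.70, -1.05 and -1.69 in COH 1 to 4, against -1.09, -1.14, -0.34 and -1.78 in control 1 to 4, a difference of 0.11 (95% interval -0.77 to 0.98). Both of its 2 complete spots had shared values on all 8 arrays. A further Hsf2 spot, measured in 3 of 4 pairs, gave 0.37, -2.32 and -1.55 in pairs 1, 2 and 4. When spots with at least 3 complete pairs were accepted, 2 heat shock factors lay above 0 and 1 below. Hsf4, known from lens development, had -0.55, -0.84, -0.53 and -1.50 in COH 1 to 4, against -0.59, -0.85, -1.31 and -1.17 in control 1 to 4, a difference of 0.12 (95% interval -0.70 to 0.95). Hsf1 is controlled mainly through its protein, which these arrays do not measure.

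Among the regulators of Hsp70, Bag3, a nucleotide exchange factor that directs clients to autophagy, had 0.21, 0.10, 0.86 and -0.27 in COH 1 to 4, against 1.48, 0.78, 0.63 and 0.22 in control 1 to 4. COH was lower in 3 of 4 pairs, with a difference of -0.55 (95% interval -1.44 to 0.33). Its 2 spots lay 4.03 log2 units apart in mean level and gave -1.31 and 0.21, so the gene's average describes neither. Hspbp1, another exchange factor, had -1.07, -0.13, -0.81 and -0.24 in COH 1 to 4, against -0.07, -1.07, -2.02 and -0.91 in control 1 to 4, a difference of 0.45 (95% interval -0.62 to 1.53) from 1 spot, whose value was shared on 1 of 8 arrays. Hspbap1, a protein named for its association with Hspb1, differed by 0.17.

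The family medians were also compared across the alternative settings. Those of Hsp90, the Hsp60 and Hsp10 pair, class A, the Cct genes and the heat shock factors stayed above 0 under each between-array scaling. The small heat shock proteins were at -0.002 with arrays scaled to the same spread and -0.01 under quantile normalization, and class C was at -0.01 and -0.05. With distinct values only, class B was at 0.47 over 4 of its 9 genes, the small heat shock proteins at 0.56 over 3 of 6 and Hsp90 at -0.05 over its 3. The Hsp70 group was at 0.02 with the median over spots. Without pair 1 class B was at 0.20, without pair 3 class A was at -0.07, class C at -0.05 and the heat shock factors at -0.10, and without pair 4 Hsp90 was at 0.12.

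Gene lists that cut across the families were described by counts. Of 22 genes known as heat-inducible targets of Hsf1, 17 were measured, 11 differed by more than 0 and 6 by less, with a median of 0.07. Dnajb1 alone met the rule, 1 of 17, where 2.57% of all items met it higher and 2.17% lower. A single call is not read as a property of the list. The differences in this list ran from -0.55 (Bag3) to 0.82 (Dnajb1). Of 45 co-chaperones and chaperones outside the symbol rule, 35 were measured, 24 differed by more than 0 and 11 by less (median 0.18), and 0 met the rule. The 7 measured mitochondrial members had a median of -0.03, the 7 of the endoplasmic reticulum one of -0.01 and the 3 of synaptic vesicles and endocytosis one of -0.13. The corresponding median over all items was 0.08, and 10458 of 18595 items differed by more than 0.

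The 17 members without a complete spot were Hspa1b, Hspa1l, Hspa2, Hsph1, Hspb2, Dnajb2, Dnajb4, Dnajb11, Dnajc1, Dnajc5b, Dnajc5g, Dnajc14, Dnajc16, Dnajc18, Dnajc28, Dnajc30 and Cct6b. Accepting spots with values in at least 3 pairs added 4 of them. Hsph1, an Hsp110 exchange factor and heat-inducible gene, differed by 0.64 (95% interval -0.17 to 1.44). Its 2 incomplete spots disagreed. The first gave 0.77, 2.58 and 1.39 in pairs 2 to 4. The second, with shared values on each of its 7 arrays, gave 0.71, -1.71 and -0.12 in pairs 1, 3 and 4. Hspa2, known from testis, differed by -1.47 (-3.12 to 0.18), Dnajc5b by 0.93 (-0.33 to 2.19) and Dnajb11 by 0.17 (-0.94 to 1.28). All 4 intervals included 0, and the other 13 were not compared.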

How the data were processed

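The deposited table gives, per spot, the log2 ratio of Cy5 (RGC) over Cy3 (reference) signal, which the authors normalised with Lowess across and within arrays and kept for spots that passed Agilent's quality criteria, per the series' design text. RNA was amplified before labelling, per the labels' protocols, which can distort ratios of low transcripts. Base 2 was inferred because frequent shared values lie exactly 2 apart (tolerance 2e-05, in 6 to 14 value pairs per array), and the direction follows the dye labels; the table states neither, and intensities were not used. Array medians were -0.05, -0.02, -0.06 and 0.004 in COH 1 to 4 and 0.001, -0.004, 0.13 and -0.007 in control 1 to 4, so any centring beyond the Lowess step is unknown.

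Symbols came from GEO's platform annotation, which gave 25353 spots 1 symbol, 48 several and 19819 none, and were updated through the gene identifier (25306 found). Spots complete on all 8 arrays were averaged per gene, giving 9792 named genes and 8803 unnamed probes, which were tested together with limma 3.58.1 (R 4.3.3, lmFit and eBayes, two-sided, replicate number as a block, Benjamini-Hochberg adjustment). Intervals are 95% intervals of that fit. Samples of equal number are paired because the design text divides ratios of eyes from the same animals. Deviations from group means correlated at 0.09, 0.02, 0.06 and 0.03 for equal numbers and from -0.19 to 0.09 for unequal ones. The study used an analysis of variance whose form is not stated, so its thresholds were applied to limma's p.

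The members and the gene lists were chosen with earlier results of these data known. Genes are given array by array where they met the selection rule, did not overlap, are the best-known members of a family or had its highest or lowest control mean. The others are given by ranges and counts, and those named beyond this rule (Hspb6, Hspb7, Dnajc24, Dnajc9, Dnaja4, Dnajb7, Dnajb13, Hspbap1 and the incomplete members) were chosen after their values were seen. The fit was tested on simulated data. Alternatives covered scaling, the block, weights, incomplete, zero and shared values, spot position, spot averaging, the prior, a p threshold of 0.01 and each pair left out.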

Additional observations from a re-analysis of the deposited data

Results flagged for a closer look

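Samples far from the other 3 of their group were looked for in 80 groups of 4 arrays, which were the gene values given array by array and the spread of the repeated spots of Hspa1a and Hspb1, in COH and in control samples, and 3 were found, where chance marks about 1 in 20 groups. All 3 are control arrays. For Cct6a, control 1 was at -0.196 while the other control arrays lay between -1.16 and -1.04. For Dnajc6, control 1 was at 0.496 while the others lay between -0.56 and -0.39. For Dnajb1, control 3 was at -2.19 while the others lay between -1.66 and -1.56. The Dnajb1 difference was 0.79 without pair 3, against 0.82 with all pairs.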

How the results depend on the processing

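The count of members past the adjusted threshold was 0 in every alternative tried. The median difference over the members ran from -0.02 (quantile normalization) to 0.13 (arrays centred on their medians) among the alternatives that kept all pairs, within 1 SD of its value in the 4 pairs (0.22), and from -0.007 to 0.20 with a pair left out. Against 2 members higher in COH by the selection rule, the count was 3 with each array centred on its median, distinct values only, the median over spots, every spot tested on its own, and a trend and robust prior. Besides Hspb9 and Dnajb1 these calls took in Dnajc24 (centred arrays, distinct values, trend and robust prior), Hspa9 (median over spots, single spots) and Cct7 (distinct values, where Dnajb1 lost its call). The count was 1 with quantile normalization, 1 with no replicate block, 1 with at least 3 complete pairs, 1 with the position trend removed (Hspb9 lost its call there and with no block, Dnajb1 in the other 2), 0 at an unadjusted p under 0.01, and 0 to 1 with a replicate left out. Against 0 members lower, it was 1 with arrays scaled to the same spread, quantile normalization, array weights, the position trend removed, every spot tested on its own and a trend and robust prior, and 0 to 1 with a replicate left out; this was Hspb7, but Dnajb13 with array weights and without pair 3 and Hspa1a on a single spot. The cause of these changes was not tested, except that fewer arrays or spots enter the fits without a pair or with distinct values only, and that accepting 3 complete pairs adds spots (23339 items, with a further spot of Dnajb1). No called result changed direction.

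Dnajb1 ranged from 0.45 (distinct values only, and at least 3 complete pairs) to 0.94 (without pair 1) and Hspb9 from 0.96 to 1.70. With no replicate block Hspb9 kept its difference of 1.37 at an unadjusted limma p of 0.062, and Dnajb1 met the rule (p 0.0347); the block changed no other call among the members. With distinct values only, 8278 items were tested, and 358 were higher and 73 lower, against 477 and 403 of 18595. A total of 4 arrays per group limits the precision, and signal over background could not be assessed from ratios.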
